A study of Mus musculus with 4 samples.

Results

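E proteins and their Id inhibitors are the subject here: the genes Tcf3, Tcf12 and Tcf4, which encode the E proteins E2A, HEB and E2-2, and the genes Id1, Id2 and Id3. Peaks of 4 chromatin accessibility libraries that overlapped by at least 1 bp were merged into regions on chromosomes 1 to 19 and X. A region belonged to a gene if that gene's body was the nearest protein-coding body and lay within 100 kb. This gave 177 of 171490 regions, with 68 at Tcf12, 41 at Tcf4, 25 at Id2, 25 at Id3, 9 at Tcf3 and 9 at Id1. The regions come from peaks called in any library, and no difference between the genotypes was part of the rule.

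The libraries were made by Omni-ATAC-seq, which marks open chromatin in isolated nuclei through the insertion of sequencing adapters by Tn5 transposase. The Maf fl/fl Il7rCre group (KO, 2 libraries) and the Maf+/+ Il7rCre group (WT, 2 libraries) both carried the Il7rCre allele, which drives Cre recombinase in lymphoid precursors that express the interleukin-7 receptor, and differed in whether Maf was floxed. Maf encodes c-Maf, and the question was which accessible sites differ without it in precursors of interleukin-17-producing γδ T cells. Each library came from 15000 to 17000 immature γδ thymocytes, CD24+, CD45RBlo, CD3e+ and negative for CD4 and CD8, sorted from pooled fetuses of embryonic day 17 to 18 backcrossed for 5 generations to C57Bl/6. Separate litters or pools for the 2 libraries of each genotype are not stated in the labels, and the p-values below then measure only the spread between these libraries, which may be technical.

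E proteins are basic helix-loop-helix transcription factors that bind the E-box, CANNTG, as dimers. Id proteins have the helix-loop-helix but lack the basic region that contacts DNA, so an E protein paired with an Id protein does not bind. In the thymus E proteins sustain the early T cell programme and antigen receptor gene rearrangement, and T cell receptor signals induce Id3 through Egr factors. Tcf12 is known from mouse knockouts to be needed for fetal γδ T cells that make interleukin-17.

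Promoter stretches of Id2, Id3 and Tcf12 are shown first, and the highest-ranking accessible sites of Id2 and Id3 lie on theirs. Promoters of Id1 and Tcf4 are not shown. The windows at the Tcf3 start and at other Tcf12 starts lie inside the gene body and are not shown either. Each line gives bases upstream of an annotated transcript start from RefSeq (GRCm38.p6), 5′ to 3′ on the gene's strand, without bases inside the annotated gene body. Capitals mark E-boxes.

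Id2 promoter, chr12:25096093-25096342, minus strand: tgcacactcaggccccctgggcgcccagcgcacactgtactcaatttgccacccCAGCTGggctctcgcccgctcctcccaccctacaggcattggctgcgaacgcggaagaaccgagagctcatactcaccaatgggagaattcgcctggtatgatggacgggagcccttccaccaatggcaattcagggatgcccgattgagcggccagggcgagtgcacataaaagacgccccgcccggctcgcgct

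Id3 promoter, chr4:136143572-136143821, plus strand: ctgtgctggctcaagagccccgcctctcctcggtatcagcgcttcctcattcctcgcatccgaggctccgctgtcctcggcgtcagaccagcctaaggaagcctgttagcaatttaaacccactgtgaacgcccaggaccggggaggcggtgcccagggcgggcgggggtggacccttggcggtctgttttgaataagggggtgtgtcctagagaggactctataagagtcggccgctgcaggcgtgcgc

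Tcf12 distal promoter, chr9:72111894-72112069, minus strand: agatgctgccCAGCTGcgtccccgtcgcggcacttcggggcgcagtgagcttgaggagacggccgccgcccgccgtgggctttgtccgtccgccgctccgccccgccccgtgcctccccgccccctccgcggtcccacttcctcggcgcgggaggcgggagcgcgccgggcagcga

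The Id2 window held 1 E-box, CAGCTG, at 196 to 191 bases before the start, and the Tcf12 window held 1 CAGCTG at 240 to 235 bases before its start. Id3 had no CANNTG in its 250 bases. Over 32817 RefSeq promoter windows of 250 bases, 66.2% held at least 1 CANNTG and 13.0% held a CAGCTG. These motifs are palindromic in their fixed letters, so both strands give the same matches. TGCTGA, the half-site that Maf factors are known to bind, was searched on both strands. The Id2 and Id3 windows held none, the Tcf12 window held 1 beginning 18 bases before the start, in the part not shown, and 16.1% of all windows held at least 1. Peaks covered 100% of the Id2 window in all 4 libraries. They covered 87.2% and 80.4% of the Id3 window in KO libraries 1 and 2, against 79.6% and 87.2% in WT libraries 1 and 2. The Tcf12 stretch was covered to at least 98.9% in every library. A motif match is a description of these letters, not a measured binding site.

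The libraries differed in how many peaks they held. KO libraries had 130935 and 120141 peaks, against 102718 and 132179 in WT libraries. The usual background pileup, recovered from the deposited fold and p-values, was 0.877 and 0.758 fragments in KO libraries, against 1.57 and 1.38 in WT libraries. The lowest fold of a listed peak at that background was 3.20 and 3.41 in KO libraries, against 3.11 and 2.94 in WT libraries. Since a fragment is worth a different fold in each library, fold values were compared as ranks within a library and not between libraries. Read depth was not given in the sources used here. WT library 1 stood apart from the rest: it had the fewest peaks, and results that turn on it are given with and without it below. Its ranks at the 78 regions of these genes that were called in all 4 libraries had Pearson's r of 0.839 and 0.800 with KO libraries 1 and 2, and 0.858 with the other WT library, while the KO libraries had r of 0.934 with each other. These correlations run across regions of the same libraries and are descriptions.

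Markers of the sorted cells were accessible: all 10 genes of a γδ T cell list had a peak at or within 1 kb of either end of the gene body in every library. So did all 4 genes of a list for CD4 and CD8 double-positive αβ thymocytes. Of 6 B cell genes, 3 and 4 had such a peak in KO libraries, against 3 and 4 in WT libraries, with none at Pax5. Plasmacytoid dendritic cells, which are known for high Tcf4, had 3 of 4 in every library, and Siglech had none. Of 6 myeloid genes 3 had one in every library, with none at Lyz2, Csf1r and Mpo. Erythroid genes had 4 and 2 of 5 in KO libraries, against 2 and 3 in WT libraries, with none at Gata1. Stromal and epithelial genes had 4 and 4 of 6 in KO libraries, against 3 and 4 in WT libraries, with none at Krt5 and Pdgfra. The part of other cells in the results below was not tested. Inside the Maf body a peak was present in all 4 libraries, covering 197 and 123 bases in KO libraries and 188 and 154 bases in WT libraries. The labels do not give the floxed bases, so the deletion was not checked here.

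The E protein genes carried their accessible sites mostly inside the gene, and the Id genes outside it. Of 118 E protein regions 94 (79.7%) overlapped the gene body, against 4 of 59 (6.78%) at the Id genes and 59.4% of all regions, which lay in some protein-coding body. The lengths of the genes differ in the same way. Tcf12 spans 267642 bp (chr9:71844252-72111893) and Tcf4 344539 bp (chr18:69343429-69687967), while Tcf3 spans 24436 bp (chr10:80409541-80433976). Id1 spans 1160 bp (chr2:152736251-152737410), Id2 2294 bp (chr12:25093799-25096092) and Id3 1571 bp (chr4:136143822-136145392). Tcf12 had more regions than 99.5% of the 18337 protein-coding genes with a region, Tcf4 more than 97.7%, Id2 and Id3 more than 92.9%, and Tcf3 and Id1 more than 68.6%. Whether a region inside a body is exonic or intronic was not assigned here.

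The 100 kb limit left out more distal sites at Id2 and Tcf4. The farthest Id2 region inside the limit lay 96.2 kb out and was called in 3 libraries, and the nearest beyond it lay 101 kb out and was called in 2. Between 100 and 300 kb from Id2 a further 51 regions had it as nearest gene, of which 23 were called in all 4 libraries, 2 in both KO libraries alone and none in both WT libraries alone. At Tcf4 the farthest region inside lay 91.8 kb out, and the next lay 101 kb out, each called in 1 library. A further 17 regions lay in the same range, with 8 in all 4 libraries and 1 in the KO libraries alone. These regions are in no count that follows.

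**Figure D1:**
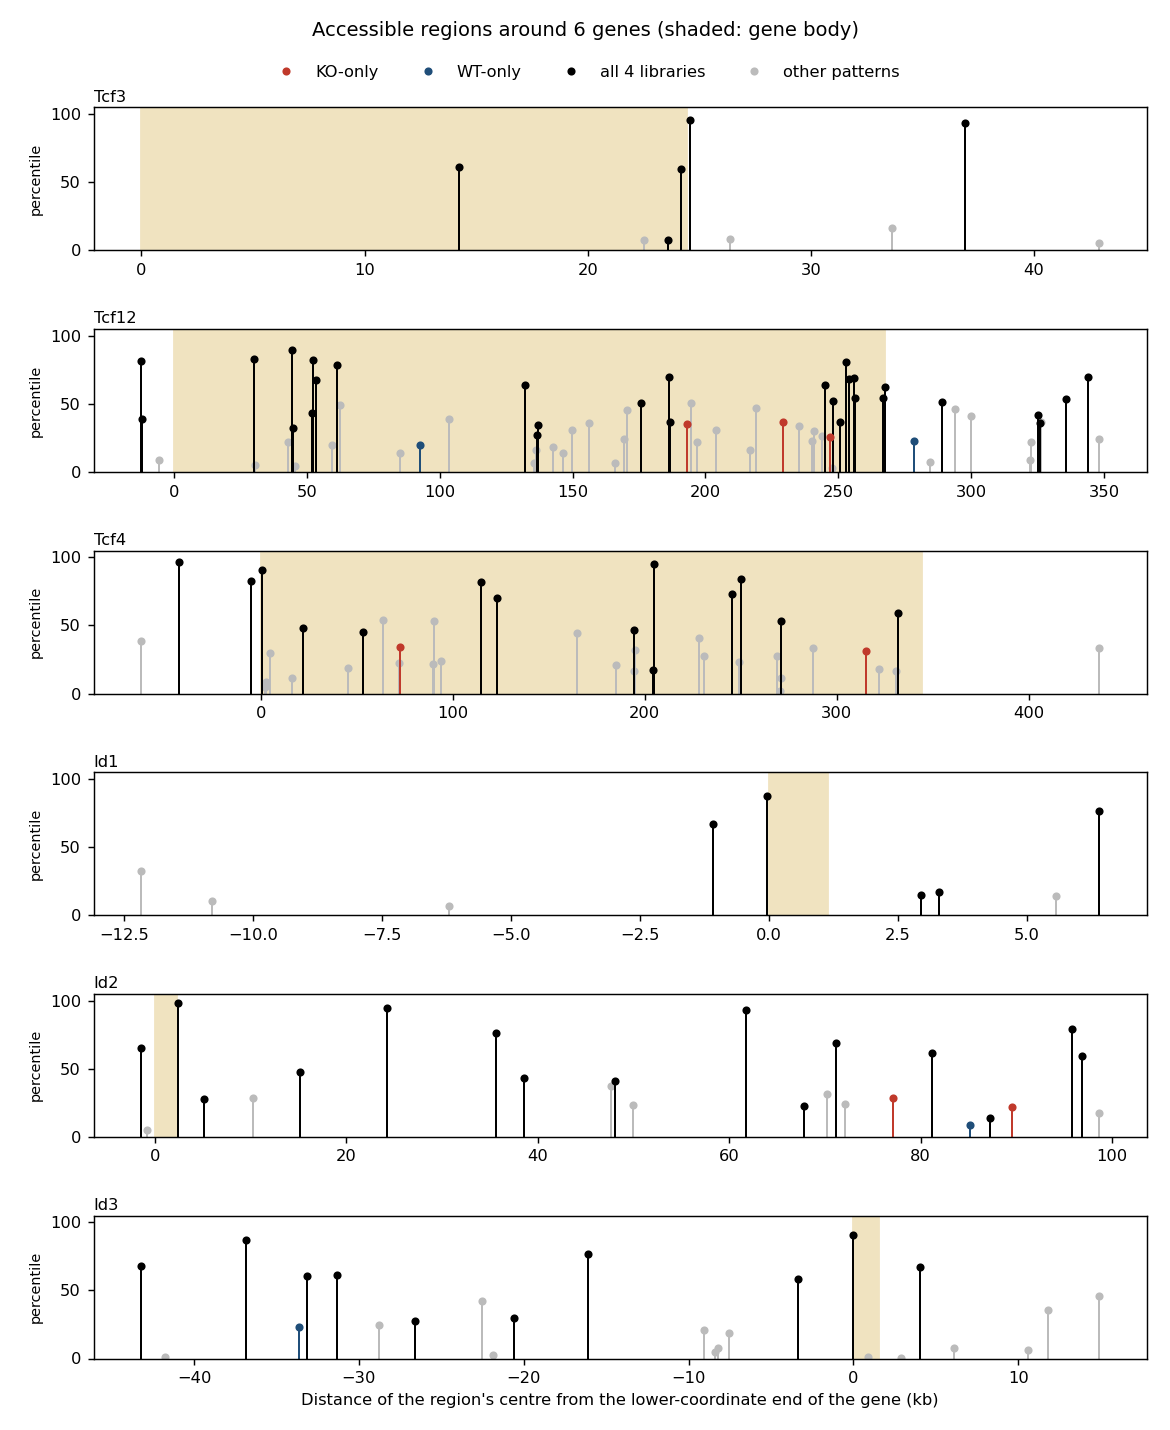
Accessible regions of the 6 genes by distance in kb of the region's centre from the gene end with the lower coordinate; the shaded box is the gene body. Height is the region's fold enrichment as a percentile in each library's own list, averaged over the libraries that called it. Red regions (7) were called in both KO libraries and no WT library, blue ones (4) in both WT libraries and no KO library, black ones (78) in all 4, grey ones in other combinations. The red and blue regions stand lower than the tallest black ones at every gene that has them.

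Peaks were called at 120 and 123 of the 177 regions in KO libraries 1 and 2 (67.8% and 69.5%). In WT libraries 1 and 2 they were called at 101 and 136 (57.1% and 76.8%). Of all regions the KO libraries called 73.7% and 68.7%, against 57.2% and 75.9% in WT libraries. The peaks covered 23.6 and 26.4 kb in KO libraries, against 19.6 and 29.3 kb in WT libraries. In both measures the WT libraries lay on either side of the KO libraries, as they did over all regions. Of the 177 regions 78 (44.1%) were called in all 4 libraries, against 45.9% of all regions, and 51 (28.8%) in a single library, against 28.6%. The median width was 97.0 bp for regions of 1 library, 153 bp for 2, 193 bp for 3 and 258 bp for 4, against 98.0, 144, 174 and 274 bp over all regions, and merging peaks of more libraries widens a region by construction. The pair of KO library 2 and WT library 2, which share no genotype, called 10 regions alone (5.65% of the 177, against 3.31% of all regions), 5 of them at Tcf4.

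Among the 126 regions called in at least 2 libraries, 7 (5.56%) were called in both KO libraries and neither WT library, against 4.34% over the genome. The reverse pattern, with a call in WT libraries 1 and 2 and no call in KO, was found at 4 (3.17%), against 2.89% over the genome. Both shares lay near the genome's. By gene, Tcf12 had 3 KO-only and 2 WT-only regions, Id2 had 2 KO-only and 1 WT-only, Tcf4 had 2 KO-only and no WT-only region, Id3 had 1 WT-only region, and Tcf3 and Id1 had neither kind. None lay within 1 kb of a gene end. With 2 libraries a genotype, an exact permutation test of a single value cannot go below p = 0.333, so none was run. The limma p-values given below for single regions use a spread estimated in part across all regions. The counts and the genome shares both move with the number of lists. Without KO library 1 there were 17 KO-only and 8 WT-only regions of 164, against 9.49% and 4.35% over the genome, and without KO library 2 there were 20 and 8 of 167, against 13.9% and 4.23%. Without WT library 1 there were 9 KO-only and 24 WT-only regions of 169, against 4.14% and 12.3%, and without WT library 2 there were 18 and 12 of 157, against 11.8% and 5.84%.

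All the KO-only regions were weak peaks. At Tcf12 the region chr9:72037343-72037524 had a summit of 8 and 12 overlapping fragments in KO libraries 1 and 2, with fold 4.73 and 6.82. The region chr9:72073288-72073389 had 8 and 11 fragments, and chr9:72090938-72091052 had 13 and 11. All 3 lay inside the gene body. At Tcf4, also inside the body, chr18:69415833-69416002 had 7 and 12 fragments and chr18:69658479-69658642 had 9 and 8. At Id2, chr12:25170832-25170935, 74.7 kb from the gene, had 9 and 10 fragments, and chr12:25183247-25183410, 87.2 kb out, had 8 and 8. No peak was called at these 7 in either WT library. A summit of 8 fragments has an exact Poisson 95% interval of 3.45 to 15.8, which covers counting error only, and the lowest summit listed at the usual background was 5 and 5 fragments in KO libraries, against 7 and 6 in WT libraries. Summits under the calling limit are not in the lists.

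The WT-only regions were as weak, with one exception in a single library. At Tcf12, chr9:71936823-71936942 inside the body had 10 and 8 fragments in WT libraries 1 and 2, and chr9:72122876-72122995, 11.0 kb outside it, had 9 and 10. At Id2, chr12:25178815-25179083, 82.7 kb out, had 10 and 10. The Id3 region chr4:136110075-136110287, 33.5 kb from the gene, had 15 fragments in WT library 1 and 37 in WT library 2, with −log10 q of 3.14 and 16.2. Its neighbour chr4:136110583-136110808 was called in all 4 libraries. There the percentiles were 43.7 and 36.4 in KO libraries, against 46.2 and 38.6 in WT libraries, so the KO and WT ranges overlapped.

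**Figure D2:**
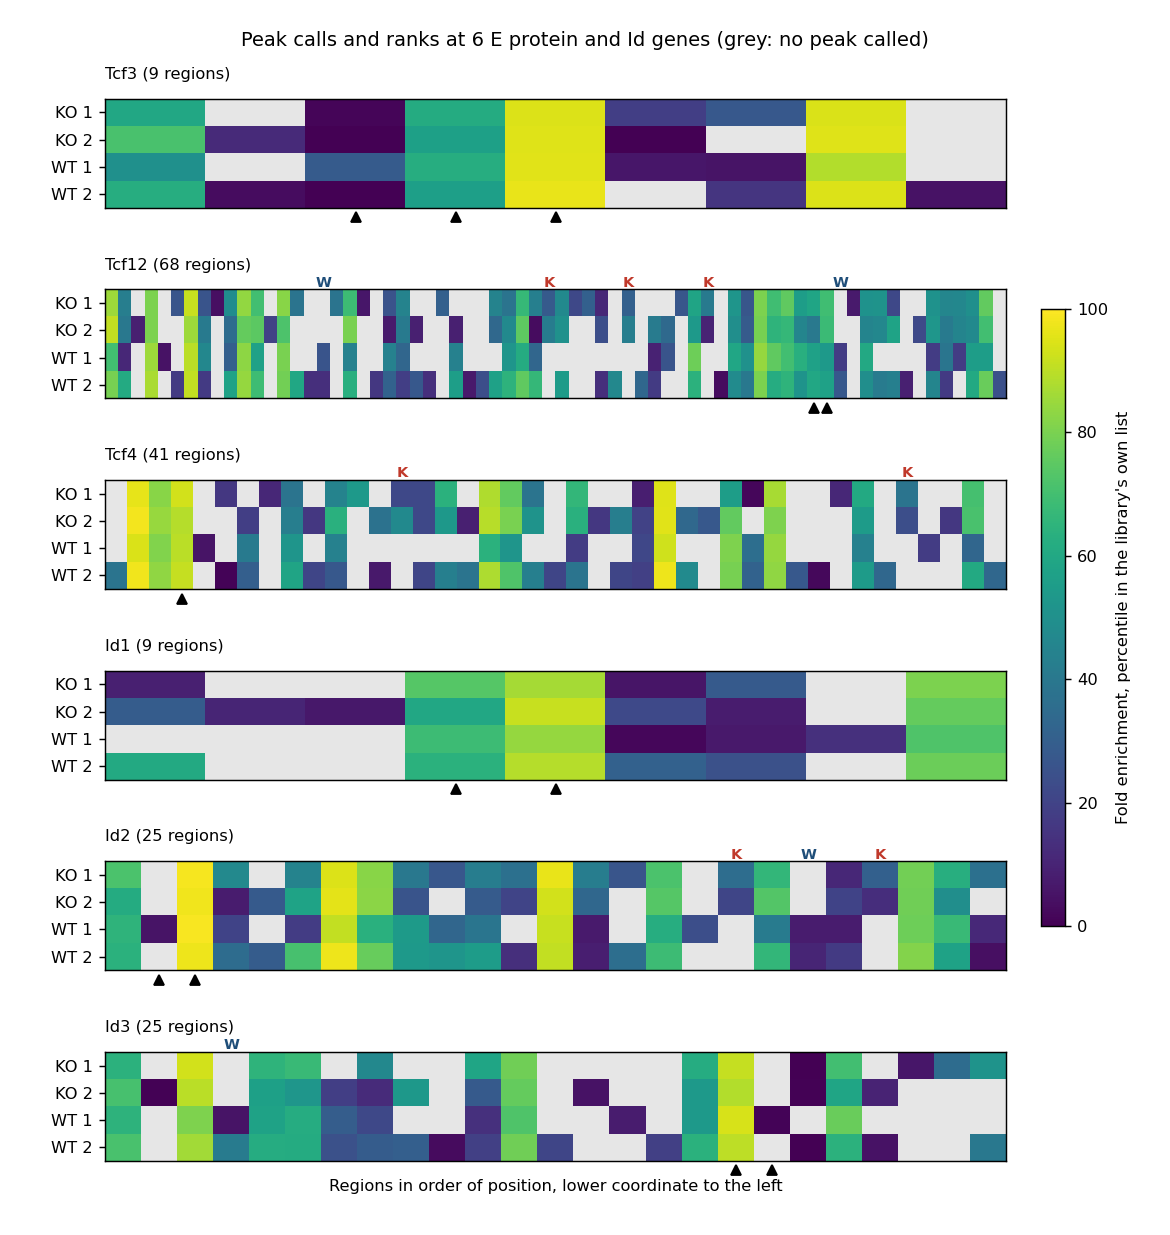
Every region of the 6 genes (columns, in order of position) in each library (rows, KO above WT). Colour is the percentile of the region's fold enrichment in the library's own peak list, grey means no peak called, K and W mark KO-only (7) and WT-only (4) regions, and triangles mark the 12 regions within 1 kb of a gene end. The brightest columns are bright in all 4 rows, while most grey cells lie among the dark columns.

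Ranks were then compared at the 78 regions called in all 4 libraries. The percentile of a region is its place by fold among the 78650 regions that all 4 libraries called, from 0 for the lowest to 100 for the highest. Both KO percentiles lay above both WT percentiles at 18 of the 78 (23.1%), against 18.6% over the genome. Both lay below at 16 (20.5%), against 18.1% over the genome, and at the other 44 the genotypes overlapped. Over the 78 regions the median difference, KO minus WT, was −0.597 percentile points, against −0.0456 over all such regions. limma, fitted to the normal scores of the ranks over all 78650 regions, called 0 of them (0%) at a Benjamini-Hochberg adjusted p under 0.05. Without adjustment 6751 regions (8.58%) had p under 0.05, and 8 of the 78 (10.3%), of which 4 were higher and 4 lower in KO. Leaving out any library raised the counts above and below, because fewer values then have to separate. The genome shares rose with them. Without KO library 1 the counts were 28 above and 34 below of 82 regions, against 32.2% and 32.8% over the genome. Without KO library 2 they were 26 and 25 of 82, against 32.7% and 31.8%. Without WT library 1 they were 34 and 26 of 89, against 35.4% and 33.0%, and without WT library 2 they were 27 and 38 of 80, against 35.9% and 39.1%.

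**Figure D3:**
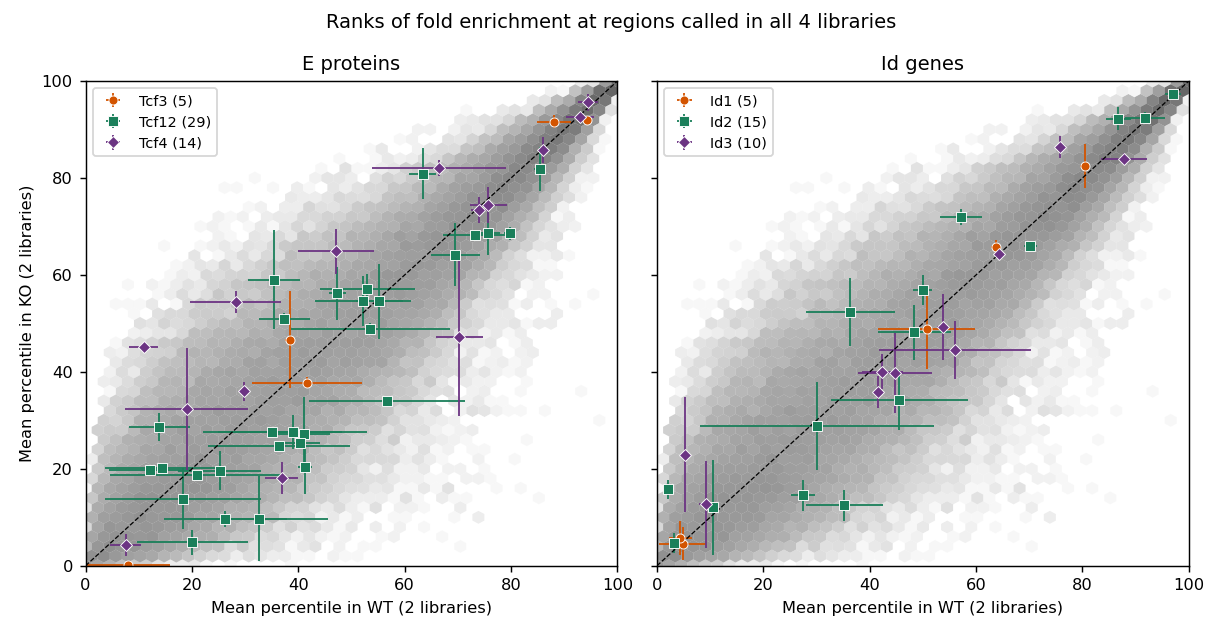
Mean percentile of fold enrichment in the 2 KO libraries (vertical axis) against the 2 WT libraries (horizontal axis) for the regions called in all 4, with E protein genes on the left and Id genes on the right. Bars run from the lower to the higher library, grey shows all 78650 shared regions on a log count scale, and the dashed line marks equal ranks. The points follow the grey cloud on both sides of the line, 33 above it and 45 below it.

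Tcf3 encodes E2A, whose splice forms E12 and E47 are the most studied E proteins of lymphocytes. Its strongest region, chr10:80433942-80434278, overlapped the upper-coordinate end of the gene body. Fold there was 25.1 and 28.2 in KO libraries, against 22.5 and 29.0 in WT libraries. In ranks the region lay at percentiles 91.4 and 92.5 in KO libraries, against 94.0 and 94.6 in WT libraries. The 2 genotypes did not overlap, and the difference of −2.35 points did not pass the limma test. The next region inside the gene, chr10:80433570-80433853, holds the RefSeq transcript start used here, at 80433635. It lay at 38.9 and 36.7 in KO libraries, against 51.9 and 31.3 in WT libraries, and the genotypes overlapped. Another, chr10:80433059-80433241, lay at 0.305 and 0.0776 in KO libraries, against 15.9 and 0.0648 in WT libraries, so WT library 1 alone was high. Its peaks covered 182 and 127 bases in KO libraries, against 91 and 79 bases in WT libraries. That width difference was 0.79 on the log2 scale (SE 0.29, limma unadjusted p = 0.0301, adjusted p = 0.689). Chosen after its values were seen, a region 12.3 kb outside the body, chr10:80446274-80446602, had fold 24.2 and 28.6 in KO libraries, against 15.7 and 25.6 in WT libraries, and overlapping ranks. Over the 5 shared Tcf3 regions the median difference was −2.35 points, and without WT library 1 it was 0.399.

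Tcf12 encodes HEB, and had the most regions of the 6 genes. Its highest-ranking region, chr9:71888503-71888777 inside the body, lay at percentiles 86.3 and 77.4 in KO libraries, against 86.4 and 84.4 in WT libraries. These values overlapped. At the gene's upper-coordinate end, where transcription starts, 2 neighbouring regions had opposite orders. The outer one, chr9:72111652-72112236, which holds the Tcf12 stretch printed above, lay at 49.9 and 52.1 in KO libraries, against 42.2 and 32.6 in WT libraries. Its summit held 26 and 33 fragments in KO libraries, against 18 and 32 in WT libraries. The inner one, chr9:72110764-72111443, lay at 34.9 and 19.6 in KO libraries, against 46.0 and 36.2 in WT libraries, with 20 and 19 fragments in KO libraries and 19 and 33 in WT libraries. Neither passed the limma test, and the difference between them was not tested.

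Over its 29 shared regions Tcf12 had a median difference of −5.02 percentile points, the largest of the 6 genes in size, with 20 regions lower and 9 higher in KO. The mean percentile of these regions was 39.6 and 39.4 in KO libraries, against 46.6 and 40.0 in WT libraries. WT library 1 alone was high. Without WT library 1 the median difference was −0.0331, and without WT library 2 it was −9.48. Both KO ranks lay above both WT ranks at 6 of the 29 regions (20.7%) and below at 9 (31.0%), against 18.6% and 18.1% over the genome. The 2 genes whose mean ranks over the 4 libraries were most like this pattern, after centring, were Sik2 and Creb1, among 8978 genes with at least 3 shared regions. Both were likewise highest in WT library 1, with mean percentiles of 51.3 and 51.5 in KO libraries, against 58.3 and 51.5 in WT libraries, for Sik2.

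Inside Tcf12, 2 regions had an unadjusted p under 0.05 in the limma rank fit, and they are named because of that value. At chr9:72019797-72019990 the percentiles were 14.9 and 25.8 in KO libraries, against 39.9 and 42.5 in WT libraries. The summits held 9 and 12 fragments in KO libraries, against 15 and 21 in WT libraries. The rank difference was −0.62 on the normal-score scale (SE 0.25, limma adjusted p = 0.564). At chr9:71980680-71980857 the percentiles were 7.38 and 2.27 in KO libraries, against 30.5 and 9.66 in WT libraries (difference −0.82, SE 0.34, limma adjusted p = 0.579). That region was also narrower in KO, with 106 and 125 bases covered, against 174 and 163 bases in WT libraries (log2 difference −0.60, SE 0.22, limma adjusted p = 0.694). In both regions the genotypes did not overlap, and neither passed the test across all regions.

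Tcf4 encodes E2-2, known as the main E protein of plasmacytoid dendritic cells. Its highest-ranking region was outside the gene body, 42.6 kb from it, at chr18:69300533-69300787. The percentiles there were 93.9 and 97.3 in KO libraries, against 92.6 and 96.4 in WT libraries, and they overlapped. At the gene end, chr18:69344108-69344627 lay at 88.4 and 83.0 in KO libraries, against 86.7 and 85.4 in WT libraries, with the WT libraries between the KO libraries. An intragenic region, chr18:69547895-69548229, also chosen for its high rank, lay at 92.0 and 93.3 in KO libraries, against 90.4 and 95.6 in WT libraries.

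In percentile points, the largest rank difference at any shared region of the 6 genes was inside Tcf4, at chr18:69537517-69537710. The percentiles were 45.4 and 45.0 in KO libraries, against 8.19 and 13.7 in WT libraries. Fold was 9.06 and 10.2 in KO libraries, against 3.89 and 5.47 in WT libraries, and the summits held 16 and 17 fragments in KO libraries, against 9 and 12 in WT libraries. Both KO libraries were above both WT libraries. The exact Poisson 95% interval of the summit ran from 9.15 to 26.0 for the lower KO library. For the higher WT library it ran from 6.20 to 21.0, so the intervals overlapped. These fragment counts are not scaled to background, which was lower in the KO libraries, so the overlap does not compare enrichment. The difference was 1.12 on the normal-score scale (SE 0.24, limma unadjusted p = 0.00238, adjusted p = 0.325). A second intragenic region, chr18:69675425-69675625, lay at 52.1 and 56.6 in KO libraries, against 19.6 and 36.8 in WT libraries (0.71, SE 0.27, limma adjusted p = 0.536). In the other direction chr18:69365396-69365659 lay at 14.9 and 21.5 in KO libraries, against 39.9 and 33.8 in WT libraries (−0.58, SE 0.24, limma adjusted p = 0.579). These 3 Tcf4 regions are named for their unadjusted p. On the normal-score scale the largest difference in size was −1.15, at chr9:72030914-72031171 inside Tcf12 (SE 0.5, limma adjusted p = 0.592). Of the 14 shared Tcf4 regions 5 (35.7%) had both KO ranks above and 2 (14.3%) had both below, against 18.6% and 18.1% over the genome. The median difference over the 14 regions was 0.400 points. The 2 genes with the most similar mean ranks were Lypd4 and Sobp.

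Id2 encodes the Id protein that innate lymphoid and natural killer cells depend on. Its promoter, chr12:25096024-25096447, had the highest mean percentile of all shared regions of the 6 genes, 97.2. Fold was 34.3 and 34.1 in KO libraries, against 31.8 and 30.3 in WT libraries, while the percentiles were 97.7 and 96.8 in KO libraries, against 98.6 and 95.6 in WT libraries. The ranks overlapped. Fold is not comparable between libraries, so the separate fold values are not read as a difference. The other region at the gene's ends was called in WT library 1 alone. Distal regions 21.9 kb and 59.3 kb from the gene are named for their high ranks, seen in these data. At chr12:25117947-25118212 the percentiles were 91.1 and 93.7 in KO libraries, against 88.0 and 95.5 in WT libraries, which overlapped. At chr12:25155413-25155754 they were 94.6 and 89.8 in KO libraries, against 89.1 and 84.4 in WT libraries, which did not.

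Of the 15 shared Id2 regions 5 had both KO ranks above both WT ranks and 3 had both below. The smallest p at Id2 was at chr12:25161508-25161702, 65.4 kb from the gene, where the percentiles were 17.7 and 13.8 in KO libraries, against 2.55 and 1.45 in WT libraries. The summits held 12 and 13 fragments in KO libraries, against 10 and 10 in WT libraries. The normal-score difference was 1.06 (SE 0.24, limma unadjusted p = 0.00314, adjusted p = 0.344). At chr12:25132279-25132497, 36.2 kb out, the percentiles were 15.7 and 9.21 in KO libraries, against 42.5 and 28.0 in WT libraries (−0.78, SE 0.27, limma adjusted p = 0.483). The region chr12:25129213-25129715 beside it was wider in KO, with 285 and 503 bases covered, against 191 and 230 bases in WT libraries (log2 difference 0.80, SE 0.27, limma adjusted p = 0.652). These regions were chosen for their unadjusted p. The median difference over the 15 regions was 0.677 points. The 2 genes most like Id2 in mean rank were Ttc7 and Ap1b1.

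Id3 encodes the Id protein induced by T cell receptor signals. Its promoter, chr4:136143604-136143972, was its highest-ranking region. Fold was 20.5 and 21.1 in KO libraries, against 20.5 and 20.5 in WT libraries. The percentiles were 85.2 and 82.6 in KO libraries, against 92.1 and 83.4 in WT libraries, and overlapped. The other region at a gene end was called in WT library 1 alone. A region 36.6 kb away, chr4:136106791-136107185, chosen after its values were seen, lay at 88.7 and 84.1 in KO libraries, against 75.1 and 76.6 in WT libraries, without overlap. The region chr4:136123134-136123316, 20.5 kb away and named for its unadjusted p, lay at 34.8 and 11.0 in KO libraries, against 6.01 and 4.53 in WT libraries (0.81, SE 0.32, limma adjusted p = 0.553). KO library 1 alone was far above the others there. Over 10 shared regions the median difference was −3.10 points, with 2 above, 1 below and 7 overlapping. Without 1 library in turn this median ran from −5.75 to 0.776, the latter without WT library 1. The 2 genes most like Id3 in mean rank were Ubr3 and Papss1.

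Id1 encodes a target of bone morphogenetic protein signals in many cell types. None of its 5 shared regions separated the genotypes, where 18.6% of shared regions over the genome lay above and 18.1% below. The promoter region chr2:152736057-152736385 lay at 77.9 and 87.1 in KO libraries, against 79.5 and 81.3 in WT libraries. A second region 0.940 kb outside the gene, chr2:152735058-152735311, lay at 57.1 and 40.6 in KO libraries, against 59.8 and 41.6 in WT libraries, with the libraries numbered 1 high in both genotypes. The region 5.14 kb away on the other side, chr2:152742549-152742755, also named after its values were seen, lay at 67.3 and 64.1 in KO libraries, against 64.6 and 62.8 in WT libraries. Differences at the 5 regions ran from −1.81 to 2.11 points. Their median was 1.35 points, and without WT library 1 it was −0.695. The 2 genes most like Id1 in mean rank were Ppcdc and Fbln2.

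**Figure D4:**
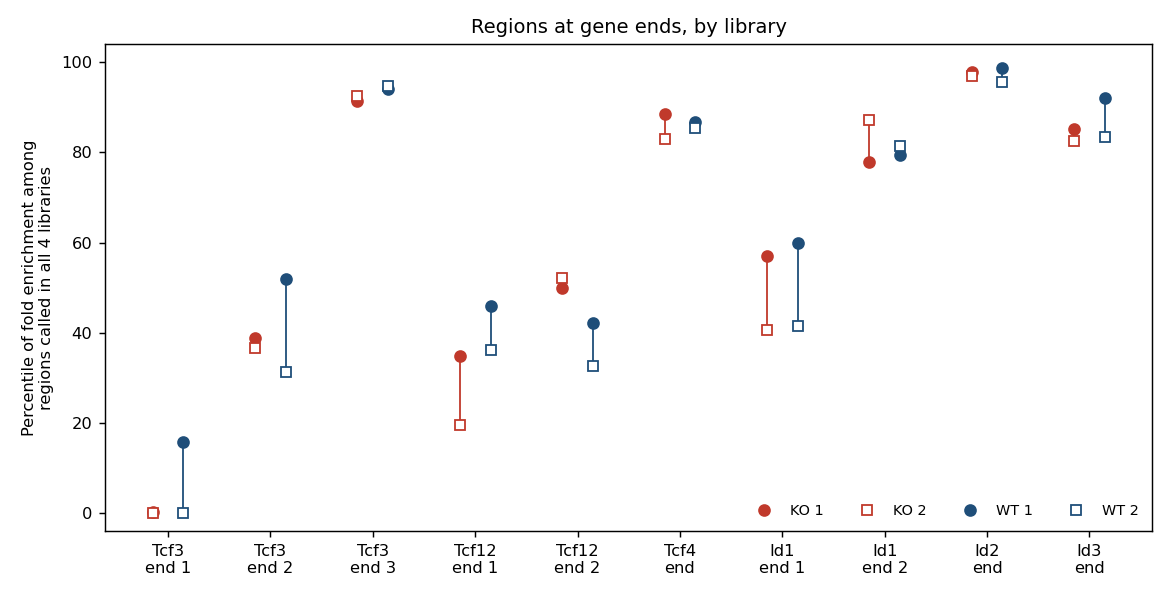
Percentile of fold enrichment, among regions called in all 4 libraries, at the 10 such regions within 1 kb of a gene end; each gene's regions run from the lower coordinate to the higher. Circles are the libraries numbered 1 and squares those numbered 2, with KO left of WT and a line joining the libraries of a genotype. The genotypes separate at the last Tcf3 region and at both Tcf12 regions, which go in opposite directions, and overlap at the others.

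The 12 regions at gene ends can be set side by side. Of these, 10 were called in all 4 libraries and none was KO-only or WT-only. The order of the strongest one at each gene by mean percentile was Id2 at 97.2, Tcf3 at 93.1, Tcf4 at 85.9, Id3 at 85.8, Id1 at 81.4 and Tcf12 at 44.2. The library values of Id2 did not overlap those of Tcf3, nor those of Tcf3 those of Tcf4. Id3 overlapped Tcf3 through WT library 1, and Tcf4, Id3 and Id1 overlapped one another.

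Peak width was compared at the same 78 regions as the bases that peaks covered. The median was 214 and 224 bases in KO libraries, against 188 and 229 bases in WT libraries. Over all 78650 regions the medians were 213 and 226 bases in KO libraries, against 190 and 236 bases in WT libraries. In both sets WT library 1 was lowest. After centring each library, the median log2 difference, KO minus WT, was −0.01 at the 78 regions and −0.01 over all. limma called 0 regions (0%) at an adjusted p under 0.05, with 5240 (6.66%) at an unadjusted p under 0.05, and 4 of the 78 (5.13%) at that level. Apart from the 3 regions already given, the fourth was chr9:72088924-72089208 inside Tcf12, with 174 and 189 bases in KO libraries, against 203 and 285 bases in WT libraries (log2 difference −0.46, SE 0.19, limma adjusted p = 0.748). Without KO library 1 the width fit called 238 regions over the genome and without KO library 2 it called 677, none of them at the 6 genes.

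**Figure D5:**
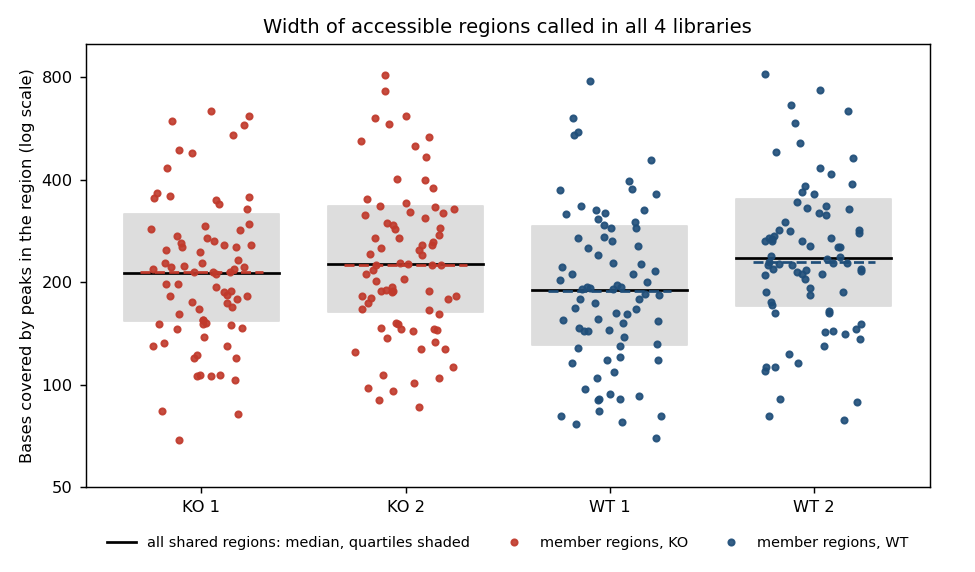
Bases covered by peaks (log scale) at the 78 regions of the 6 genes called in all 4 libraries (points; dashed line, their median), with KO libraries left of WT libraries. The black line and grey box are the median and quartiles of all 78650 shared regions. The dashed and black lines lie close together in every library, and both are lowest in WT 1.

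Genes that act with these factors were read from 3 lists, chosen with earlier results of these data known. Over the genome 4.34% of regions called in at least 2 libraries were KO-only and 2.89% were WT-only. At 15 partners and cofactors of E proteins (for example the bHLH factor gene Tal1, the adaptor genes Lmo2 and Ldb1, and the acetyltransferase gene Ep300), 6 of 103 regions called in at least 2 libraries were KO-only (5.83%) and 3 were WT-only (2.91%). Both KO ranks lay above both WT ranks at 12 of 64 shared regions (18.8%) and below at 12 (18.8%), where the genome had 18.6% above and 18.1% below. The median difference at these partners was 0.528 points. At 22 genes known as E protein targets in thymocytes, such as Rag1, Ptcra and Notch1, 14 of 390 regions were KO-only (3.59%) and 13 WT-only (3.33%). Their ranks lay above at 33 of 258 shared regions (12.8%) and below at 54 (20.9%), beside the same 18.6% and 18.1% over the genome. The median difference at the targets was −1.13 points, against −0.0456 over the genome, and none of the 3 lists was tested as a set. At 11 genes that signal to Id genes, such as Egr1, Egr2 and Smad1, 4 of 132 regions were KO-only (3.03%) and 3 WT-only (2.27%). Ranks lay above at 13 of 92 shared regions (14.1%) and below at 14 (15.2%). The median difference there was −1.40 points, so the targets were not the list furthest below the genome. No region of the 3 lists passed the limma rank test, which called none in the genome.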

How the data were processed

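Peak lists of 4 Omni-ATAC-seq libraries were used, 1 per sample. Per the submitters' processing notes, MACS2 2.1.1, Bowtie2 2.3.4.1, deepTools 3.1.2, bedtools, Picard, cutadapt and Trim Galore were used with the builds GRCm38 and mm10. Their settings and any Tn5 shift of read ends were not given in the sources used here. For each peak the deposited lists give its start, end and summit offset, a display score, a fold enrichment (a ratio to local background) in column 7, and −log10 p-values and q-values in columns 8 and 9. Every deposited peak had a −log10 q of at least 1.00. Whole summit pileups were recovered from fold and p-value.

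Peaks were merged, assigned to the nearest RefSeq GRCm38.p6 protein-coding body and ranked by the highest fold, with equal values sharing a rank, in Python 3.11.15 with pandas 2.3.3 and numpy 2.4.6. Ranks were turned into normal scores and, like centred log2 covered bases, were fitted with limma 3.58.1 (lmFit, eBayes) in R 4.3.3, with Benjamini-Hochberg adjustment over 78650 regions; the procedure was tested on simulated data. Alternatives covered a −log10 q of at least 5, a distance of 20 kb, ranks over whole lists, other rank columns, centring, and each library left out. The regions named were every KO-only and WT-only region, every region within 1 kb of a gene end and each gene's highest-ranking region. Other regions were named after their values were seen. Genes with similar patterns had the smallest Euclidean distance between centred mean percentiles. The genes and lists were chosen with earlier results of these data known. Read counts were not used here, so intervals cover counting error at summits alone.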

Additional observations from a re-analysis of the deposited data

How the results depend on the processing

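With peaks of −log10 q of at least 5, 3 KO-only and 2 WT-only regions of 91 were left, against 4.04% and 2.26% over the genome. Within 20 kb of the genes 5 KO-only and 2 WT-only regions of 90 were left. The genome shares beside them, 4.34% and 2.89%, were not limited to 20 kb. With the same number of peaks taken from each library there were 5 KO-only and 3 WT-only regions of 108. The genome shares were then 3.88% KO-only and 4.06% WT-only, so their order turned. Ranked over each library's whole list, both KO ranks lay below both WT ranks at 10 of 78 regions, against 13.4% over the genome. Both lay above at 20 of 78, against 21.0% over the genome. Within 20 kb, both lay above at 10 of 55 shared regions and below at 12, so the order of the pair of counts turned. The genome shares without that limit were 18.6% and 18.1%. Leaving out 1 library in turn gave 9 to 20 KO-only regions, 8 to 24 WT-only regions, 26 to 34 regions above and 25 to 38 below, 0 calls in the limma rank fit and 0 to 677 in the width fit. The cause of the width calls was not tested. The median differences by gene kept their sign under all 7 alternatives at Tcf12, under 6 at Tcf4, Id1 and Id2, under 5 at Tcf3 and under 4 at Id3, and the medians ran from −9.48 at Tcf12 to 3.52 at Id1.

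Libraries of the 2 genotypes share replicate numbers, but no label ties a number to a litter or day. Their deviations from the genotype means correlated at 0.116 over the ranks of all shared regions and at 0.206 over those of the 78 regions. With the replicate block limma called 0 regions by rank and 0 by width, with 8 (10.3%) and 7 (8.97%) of the 78 regions at an unadjusted p under 0.05, against 10.5% and 8.04% over the genome. Summits of few fragments and 2 libraries a genotype limit what these lists can show.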
